A study of Mus musculus with 168 samples.

Results

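The transcripts described here are those of NRF2 (gene symbol Nfe2l2), of 6 antioxidant genes that it is known to activate, and of the 3 small Maf factors that it pairs with, in the brain of adult mice during and after systemic hypoxia. The 10 genes were taken by name, with earlier results of these data known. Every probe set annotated to 1 of them alone was used. This gave 19 probe sets of the 45037 tested and 10 genes of the 18193 that have such a probe set. The mice were C57BL/6 males aged 8 to 9 weeks. Hypoxia was 8% oxygen, with brains taken after 1 h (H1) or 3 h (H3) of it, or 1, 3, 6, 12 or 24 h after return to room air following the 3 h exposure (R1, R3, R6, R12 and R24). Sham mice spent 3 h in these chambers at room air, then 24 h in home cages. Changes at time points before R24 thus cannot be told apart from time since handling and the chamber, or from the hour of the day. Cerebellum, pons with medulla, midbrain, thalamus, striatum, hippocampus and cortex were each measured in 3 arrays for each of the 8 groups, 24 arrays a region. By the study's methods 3 mice were used for each group, 24 in all, so the regions of a group share their 3 mice. All groups are whole tissue pieces, in which fewer cells of a type and less RNA per cell cannot be told apart. Values are linear signal intensities of Affymetrix Mouse Genome 430 2.0 arrays, and a change is a difference of means of log2(intensity + 16), a scale that understates the change of dim probe sets.

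NRF2 is a basic leucine zipper transcription factor. KEAP1 holds it in the cytoplasm and directs its degradation in unstressed cells, and oxidants or electrophiles release it to the nucleus. There it binds antioxidant response elements as a dimer with a small Maf protein, MAFF, MAFG or MAFK. Small Maf proteins have no activation domain of their own, so pairs of small Maf proteins, or of a small Maf with BACH1, hold the same elements silent. In brain the pathway is best known in astrocytes, which supply neurons with glutathione precursors. Because NRF2 is controlled largely through its protein, its mRNA is a poor gauge of its activity, and the mRNAs of its targets are the usual readout. Of the targets, Hmox1 encodes heme oxygenase 1, Nqo1 a quinone reductase, Gclc and Gclm the catalytic and modifier subunits of glutamate cysteine ligase, Txnrd1 cytosolic thioredoxin reductase, and Srxn1 sulfiredoxin, which repairs oxidised peroxiredoxins.

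RefSeq start sites were at hand for 8 of the 10 genes (not Hmox1 and Gclc), with 12 windows of 250 bases before a start in build GRCm38.p6. The core of the antioxidant response element, searched as TGACNNNGC on both strands, was in 6 of these 12 windows, against 10.2% of all 32851 such windows. The matches lay before Nfe2l2, Maff, Mafg and Mafk, and among the antioxidant targets before Gclm and Txnrd1. The windows of Nqo1 and Srxn1 had none of this spelling, and other spellings of the element were not searched. TGAGTCA, the AP-1 type element that Maf and AP-1 proteins share, was in the Srxn1 window alone and in 4.46% of all windows. TGACGTCA, the cAMP response element, was in 1 Maff window and in 1.55% of all windows, and ACGTG, the core of the hypoxia response element, was in windows of Gclm, Maff, Mafg and Mafk and in 16.6% of all windows. None of these matches overlapped a match to another of the 4 motifs. The 4 windows that end at the outermost start of their gene and hold a match are shown in lower case with the matches in capitals. They are those of Maff, Nfe2l2, Mafk and Srxn1, the only members with such a window. A match is a match of letters and not a measured binding site.
Maff, chr15:79346371-79346620, plus strand: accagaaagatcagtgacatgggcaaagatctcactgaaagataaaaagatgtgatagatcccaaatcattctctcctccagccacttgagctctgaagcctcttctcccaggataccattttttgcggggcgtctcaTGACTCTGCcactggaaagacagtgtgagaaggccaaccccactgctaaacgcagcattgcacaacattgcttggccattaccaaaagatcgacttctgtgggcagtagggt
Nfe2l2, chr2:75704664-75704913, minus strand: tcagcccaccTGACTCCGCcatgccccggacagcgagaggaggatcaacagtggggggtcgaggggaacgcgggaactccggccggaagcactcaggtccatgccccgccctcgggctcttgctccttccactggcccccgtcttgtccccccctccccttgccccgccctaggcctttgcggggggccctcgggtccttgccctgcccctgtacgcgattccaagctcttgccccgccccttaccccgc
Mafk, chr5:139791286-139791535, plus strand: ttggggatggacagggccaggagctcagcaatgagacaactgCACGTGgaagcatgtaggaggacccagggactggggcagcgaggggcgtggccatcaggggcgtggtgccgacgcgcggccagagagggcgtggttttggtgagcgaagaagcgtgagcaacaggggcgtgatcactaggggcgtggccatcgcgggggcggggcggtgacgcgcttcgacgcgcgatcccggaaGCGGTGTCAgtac
Srxn1, chr2:152105274-152105523, plus strand: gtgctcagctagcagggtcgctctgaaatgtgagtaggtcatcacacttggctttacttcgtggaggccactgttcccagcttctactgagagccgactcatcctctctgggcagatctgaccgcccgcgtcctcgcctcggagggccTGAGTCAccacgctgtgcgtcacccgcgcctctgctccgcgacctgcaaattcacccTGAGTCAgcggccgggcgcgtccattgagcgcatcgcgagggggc
Counting back from the start, the first base of the TGACNNNGC match lies at position -112 in Maff, -240 in Nfe2l2 and -13 in Mafk, the last of these read on the opposite strand. The 2 TGAGTCA matches of Srxn1 begin at -102 and -45, and the capitals at -208 in Mafk are CACGTG, which holds ACGTG on both strands.

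Among the 10 genes, Maff had the largest changes and the most calls. It rose at H3 in hippocampus, thalamus, midbrain, and pons and medulla, and at R1 in those 4 regions and in cerebellum. No antioxidant target gene had a rise that passed the test in any region at any time point. On average over the regions, both probe sets of Mafg fell and Mafk rose slightly at R1. The 2 probe sets of Nfe2l2 went opposite ways in this mean, the brighter one down and the dimmer one up. Over the 19 probe sets and 7 regions, 5 of 133 tests rose at H3 (3.76%) and 0 fell, against 0.157% and 0.153% of the tests over all probe sets (adjusted p from limma under 0.05). At R1, 7 of 133 rose (5.26%) and 3 fell (2.26%), against 0.158% and 0.25%. The genes were chosen with earlier results of these data known, so these shares are a description only. No member was called at H1, R3, R6, R12 or R24 (8, 7, 10, 10 and 10 of 133 tests at an unadjusted p under 0.05, and 0 calls after adjustment with an unmoderated test of each time point against sham), where the shares over all probe sets were 0.0301%, 0.00888%, 0.000634%, 0% and 0%.

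**Figure D1:**
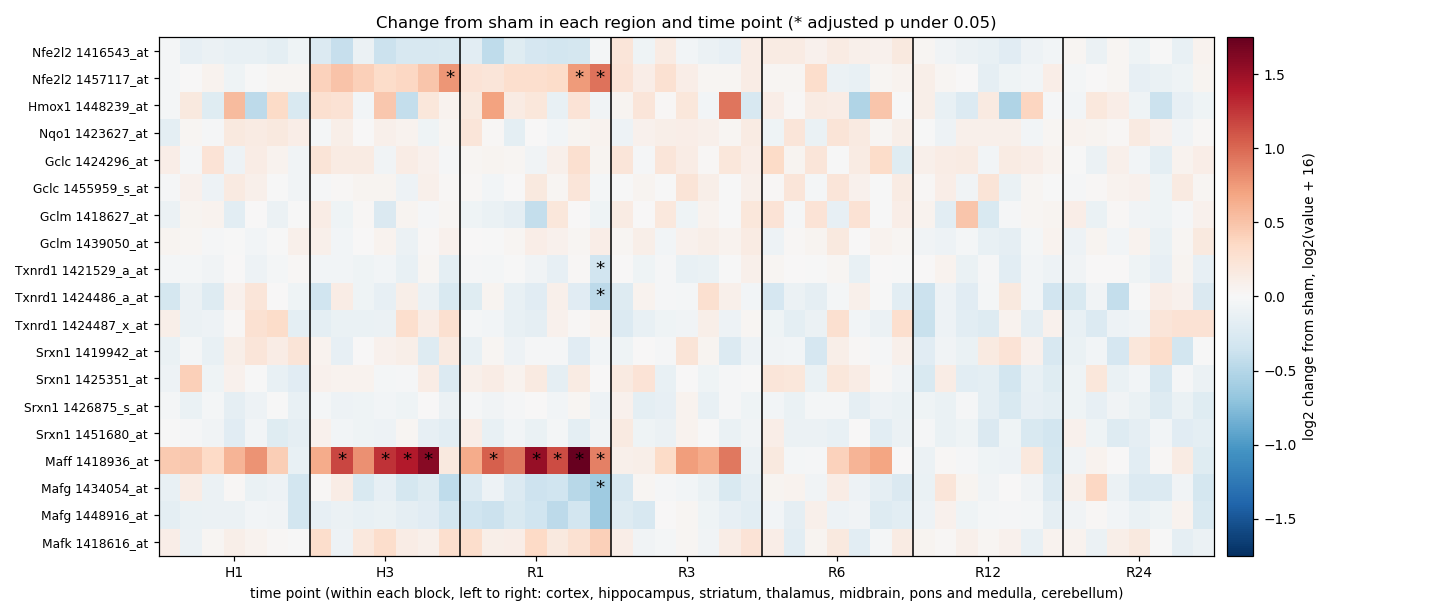
Log2 change from sham of each of the 19 member probe sets (rows) in each region and time point (columns, 7 blocks of 7 regions), in colour from blue (lower) to red (higher), with an asterisk where limma's adjusted p is under 0.05. The asterisks lie at H3 and R1 alone, 9 of the 15 in the row of Maff.

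Maff is the small Maf factor that is induced most readily by stress and growth signals. In sham mice its probe set was dim in every region, between 2.76 and 13.1 over 21 arrays with a median of 6.04. At H1 the 21 arrays ran from 4.29 to 31.4 with a median of 15.2, at H3 from 3.76 to 65.5 with a median of 33.0, and at R1 from 3.47 to 69.7 with a median of 31.5. All 21 sham arrays lay under the added constant of 16, against 6 of 21 at H3 and 1 of 21 at R1. The change thus runs from values under the constant to values above it.

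In pons and medulla, where the change of Maff was largest, the sham arrays read 6.60, 5.21 and 6.44. The H3 arrays read 35.3, 65.5 and 54.5, and the R1 arrays 50.7, 53.8 and 69.7. All arrays of both time points lay above all sham arrays. Maff rose there by 1.59 ± 0.29 (SE, n = 3) at H3 and by 1.74 ± 0.29 at R1 (adjusted p = 0.025 and 0.016, limma). All 3 sham arrays lay under the constant, so no ratio of intensities is given. Each of these calls was lost in 5 of the 24 fits that left out the arrays of 1 replicate number of 1 time point. For H3 these were the fits without any 1 sham replicate or without H3 replicate 2 or 3 (adjusted p = 0.093 to 0.16), and for R1 those without sham replicate 1 or 2 or any 1 R1 replicate (0.063 to 0.11).

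In thalamus the sham arrays of Maff read 4.92, 6.06 and 8.80, the H3 arrays 39.0, 47.3 and 29.2, and the R1 arrays 53.5, 36.2 and 60.0. The groups did not overlap, and the rises were 1.26 ± 0.20 at H3 (adjusted p = 0.0078, limma) and 1.53 ± 0.20 at R1 (adjusted p = 0.0030). In midbrain the sham arrays read 5.45, 7.28 and 7.62, the H3 arrays 54.0, 45.6 and 33.0, and the R1 arrays 36.3, 26.3 and 40.4. Again no array of either time point reached down to sham, with rises of 1.39 ± 0.23 at H3 (adjusted p = 0.0077) and 1.13 ± 0.23 at R1 (adjusted p = 0.040). The calls in thalamus and the H3 call in midbrain passed in all 24 fits with a replicate left out, and like all 9 regional calls of Maff they were lost with an unmoderated test adjusted over all probe sets (adjusted p = 0.21 to 0.60). The R1 call in midbrain was lost in 16 of them, without any 1 of the sham and R1 replicates among others (adjusted p = 0.051 to 0.17).

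In hippocampus, the structure whose neurons are among the most sensitive to lack of oxygen, Maff read 5.30, 5.52 and 3.38 in sham mice, 27.7, 33.2 and 30.4 at H3, and 34.98, 30.4 and 17.3 at R1. The rises were 1.16 ± 0.20 (adjusted p = 0.011, limma) and 1.05 ± 0.20 (adjusted p = 0.027), with no overlap with sham. The H3 call was lost without sham replicate 3 or H3 replicate 2 or 3 (adjusted p = 0.056 to 0.063), and the R1 call without any 1 sham replicate or R1 replicate 1 or 2 (0.070 to 0.11). In cerebellum the sham arrays read 4.85, 13.1 and 4.73 and the H3 arrays 3.76, 14.6 and 13.4, which overlap, for a difference of 0.17 ± 0.17 (adjusted p = 0.84). The R1 arrays of cerebellum, at 20.9, 28.5 and 31.5, lay above all sham arrays, and Maff rose there by 0.88 ± 0.17 at R1 (adjusted p = 0.016). This call was lost without sham replicate 1 or 3 or R1 replicate 2 or 3 (adjusted p = 0.068 to 0.082). With a constant of 1 in place of 16, the calls in pons and medulla at both times, in midbrain at R1 and in cerebellum at R1 were lost (adjusted p = 0.089 to 0.13).

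Cortex and striatum had no call for Maff, and single arrays differed widely there. In cortex the H3 arrays read 5.62, 33.3 and 26.7 and the R1 arrays 3.47, 24.6 and 40.6, against 6.04, 7.40 and 6.68 in sham mice. In each time point 1 array was as low as sham, and the differences were 0.65 ± 0.34 and 0.64 ± 0.34 (adjusted p = 0.75 and 0.64, limma). In striatum the sham arrays read 2.84, 2.76 and 10.8, the H3 arrays 12.4, 48.8 and 11.3, and the R1 arrays 22.0, 24.1 and 27.4. All 6 of the latter lay above sham, for differences of 0.80 ± 0.27 at H3 (adjusted p = 0.38) and 0.94 ± 0.27 at R1 (adjusted p = 0.17).

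**Figure D2:**
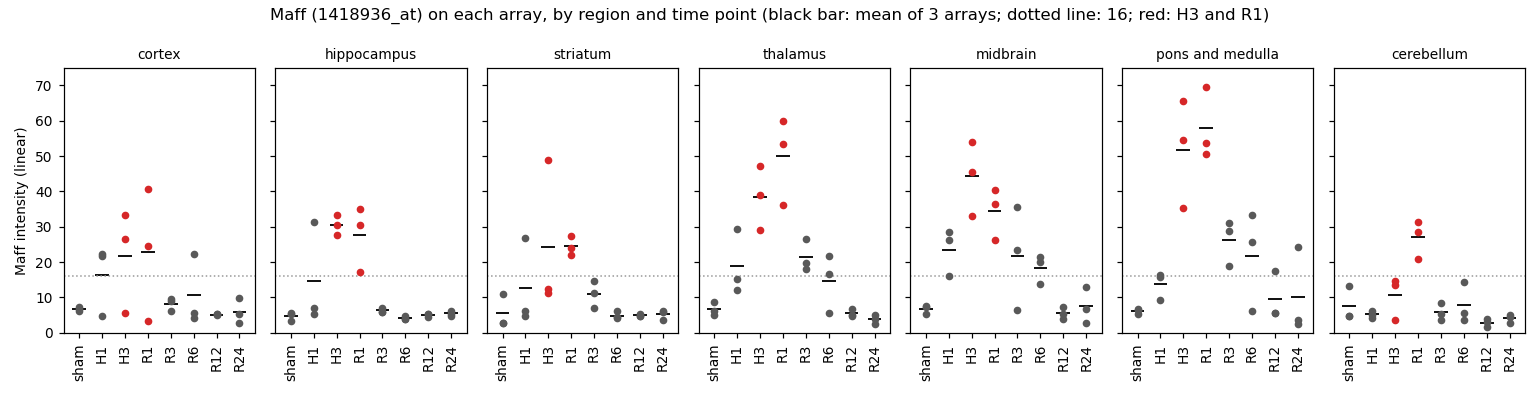
Intensity of Maff on every array of the 7 regions, on a linear axis, by time point within each region, with the mean of 3 arrays as a bar and H3 and R1 in red. Sham arrays sit between 2.76 and 13.1 in all regions, and the highest array, at 69.7, is an R1 array of pons and medulla.

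Whether these regional differences in the change of Maff exceed the spread was tested directly. The change did not pass the test for a difference between regions at H3 (unadjusted p = 0.0019, adjusted p = 0.57, limma) or at R1 (unadjusted p = 0.043, adjusted p = 0.73). Of the 19 probe sets, 0 passed this test at H3 and 0 at R1 (1 and 3 at an unadjusted p under 0.05), where 0.0222% and 0.135% of all probe sets did. So the calls present in 1 region and absent in another are not shown to differ between those regions.

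Means over regions are taken over arrays that share time point and replicate number. No source used here ties that number to a mouse. The tests and intervals treat the 3 profiles of a time point as independent, and may be too narrow if these share mice. In time, the mean change of Maff was largest at R1. Averaged over the 7 regions, it was 0.42 ± 0.12 above sham at H1 (adjusted p = 0.28, limma on 3 mean profiles a time point), rose by 1.00 ± 0.12 at H3 and by 1.13 ± 0.12 at R1 (adjusted p = 5.0e-05 and 1.5e-05), and was 0.39 ± 0.12 above sham at R3 (adjusted p = 0.17). At R6 it was 0.26 above sham (95% interval 0.0014 to 0.52), and at R12 and R24 it was -0.06 and -0.03. Between H1 and H3 it rose by 0.58 ± 0.12 (adjusted p = 0.025), as 0.884% of all probe sets changed in that contrast. Between H3 and R1 the difference was 0.13 ± 0.12 (adjusted p = 0.76), with 1.83% of all probe sets changed. At R3 the arrays of thalamus (18.1, 19.8 and 26.4) and of pons and medulla (18.9, 30.9 and 28.9) were above all their sham arrays, without a call (adjusted p = 0.33 and 0.60, limma).

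Mafg, which like Mafk lay above 16 on every array, had a lower mean over regions than sham at H3 and R1, where Maff was higher. Its probe set 1434054_at read 142.1, 169 and 190.4 in sham cerebellum, 100.6, 134 and 123 at H3, and 91.7, 106 and 109.6 at R1. Both later groups lay below sham, and it fell by 0.63 ± 0.15 at R1 (adjusted p = 0.040, limma), while the difference at H3 was -0.44 ± 0.15 (adjusted p = 0.20). The other probe set of Mafg, 1448916_at, read 163, 356 and 241 in sham cerebellum and 150.4, 152 and 153 at R1, for a difference of -0.62 ± 0.19 (adjusted p = 0.15). All 7 regions had lower means than sham at R1 for both probe sets. At H3, 1434054_at had a lower mean than sham in 5 of them and a higher mean in 2.

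Averaged over the regions, Mafg fell at R1 by 0.34 ± 0.049 on 1434054_at and by 0.39 ± 0.071 on 1448916_at (adjusted p = 0.00018 and 0.0019, limma). At H3 the mean differences were -0.18 ± 0.049 and -0.17 ± 0.071, neither of them called (adjusted p = 0.0503 and 0.27). In a fit over all arrays with a random block, the first of these passed (-0.18, adjusted p = 0.044, limma). With the replicate number as a block, 4 member probe sets passed at H3 in place of 3. From R3 on the mean differences of Mafg lay between -0.12 and -0.03. The cerebellar call was lost in 9 of 24 fits with a replicate left out, without sham replicate 2 or 3 or any 1 R1 replicate among others (adjusted p up to 0.16), with a constant of 1 (0.058), with quantile normalization (0.064) and with median centring (0.088), while both falls of the mean over regions passed in all 24.

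Mafk, the small Maf factor first described with the erythroid factor NF-E2, was called in no single region. Its R1 arrays lay above sham in cerebellum alone, at 130.1, 129 and 135 against 81.0, 103 and 99.5, a difference of 0.42 ± 0.14 (adjusted p = 0.19, limma). The mean over the regions rose by 0.25 ± 0.071 at R1 (adjusted p = 0.047). This call was lost in 16 of 24 fits with a replicate left out, without sham replicate 1 or 2 or R1 replicate 1 or 3 among others (adjusted p up to 0.22), and with a constant of 1 (0.067).

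Nfe2l2 itself was measured by probe sets that disagreed. The brighter, 1416543_at, ran from 100.4 to 267 over the sham arrays and had a lower mean than sham in all 7 regions, with differences of -0.41 to -0.10 at H3 and of -0.44 to -0.03 at R1. No region passed the test alone, with smallest adjusted p of 0.18 at H3 and 0.10 at R1 (limma). In hippocampus, where the difference was largest at both times, the sham arrays read 163, 175 and 179, the H3 arrays 130.03, 118 and 130.4, and the R1 arrays 137, 124 and 109. Neither group overlapped sham there. Averaged over the regions, this probe set fell by 0.28 ± 0.050 at H3 and by 0.26 ± 0.050 at R1 (adjusted p = 0.0021 and 0.0035), and it was 0.02 above sham at R3.

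The other Nfe2l2 probe set, 1457117_at, lay under 16 on 97.0% of the arrays. In cerebellum it read 1.19, 0.969 and 1.44 in sham mice, 18.4, 7.62 and 14.9 at H3, and 14.2, 16.05 and 21.5 at R1. It rose there by 0.77 ± 0.13 at H3 and by 0.94 ± 0.13 at R1 (adjusted p = 0.0038 and 0.00084, limma). It also rose at R1 in pons and medulla by 0.75 ± 0.12 (adjusted p = 0.015), from 2.13, 2.16 and 1.86 to 18.4, 15.2 and 9.98, a call lost without sham replicate 1 or 2 or R1 replicate 1 or 2 (adjusted p = 0.066 to 0.10). Averaged over the regions it rose by 0.46 ± 0.055 at H3 and by 0.44 ± 0.055 at R1 (adjusted p = 3.3e-05 and 5.6e-05). The array annotation gives Nfe2l2 alone for both probe sets, and which part of the transcript each one reads was not given in the sources used here, so no single direction is given for Nfe2l2.

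Between time points within a region, the same probe set in cerebellum was the only member called from H1 to H3, with a rise of 0.73 ± 0.13 (adjusted p = 0.022, limma), where 0.0254% of all tests were called. No member was called from H3 to R1, where 0.121% were. In the F-test over the 7 time points, 8 of 133 tests of members passed, against 0.96% of all. These 8 were Maff in hippocampus, thalamus, midbrain, pons and medulla, and cerebellum, 1457117_at of Nfe2l2 in pons and medulla and in cerebellum, and 1421529_a_at of Txnrd1 in cerebellum.

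**Figure D3:**
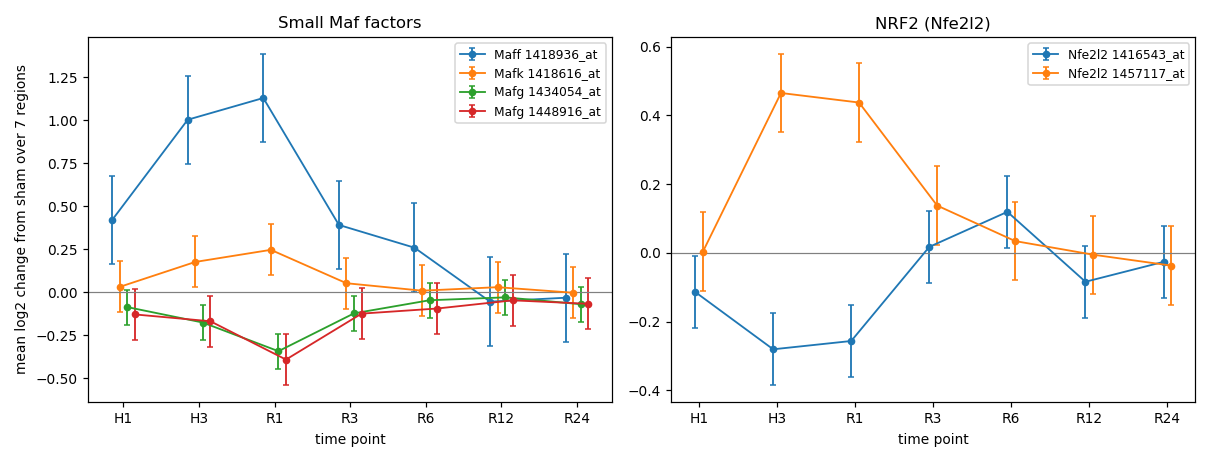
Mean log2 change from sham over the 7 regions at each time point (points, with 95% intervals from limma as bars), for the small Maf factors at the left and the 2 probe sets of Nfe2l2 at the right. Maff peaks at 1.13 at R1, Mafg is lowest at R1 at -0.34 and -0.39, and the Nfe2l2 probe sets part at H3, at -0.28 and 0.46.

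Averaged over the 7 regions, 2 of the 19 member probe sets rose and 1 fell at H3, against 1.2% and 2.16% of all probe sets. At R1, 3 rose and 3 fell, against 1.65% and 3.83%. At the other 5 time points none was called by limma (15 of 95 tests at an unadjusted p under 0.05), against 0.196% of all such tests. The fit over all arrays with a random block called 5 of these tests, namely Maff at H1 (0.42) and R3 (0.39, adjusted p = 0.022 and 0.021, limma), Srxn1 (1426875_s_at) at R12 and R24 (-0.14 at both, adjusted p = 0.0083 and 0.026) and Srxn1 (1451680_at) at R12 (-0.16, adjusted p = 0.019). That fit treated arrays of different regions as nearly independent (correlation 0.037), though the regions of a group share their 3 mice. Its share of calls over all probe sets was not counted, so these 5 calls are a description only. The median change over the 19 was 0.0038 at H3 and -0.028 at R1, beside -0.0056 and -0.017 over all probe sets.

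On the log2(intensity + 16) scale the antioxidant target genes had small mean changes over the regions. This scale understates the change of Hmox1, which lay under 16 on 84.5% of the arrays. Over the 13 target probe sets, the mean change was between -0.10 and 0.12 at H3 and between -0.15 and 0.18 at R1. None was called at any of the 7 time points (10 of 91 tests at an unadjusted p under 0.05, smallest adjusted p 0.22, limma). The fit with a random block, which treated regions as nearly independent, turned 3 of these tests, all of Srxn1 and all below sham, into calls. The share of all probe sets called by that fit was not counted. The 95% intervals of these means reached no further than -0.24 and 0.34 at H3 and -0.29 and 0.40 at R1. Maff over the same arrays had intervals of 0.75 to 1.26 and 0.87 to 1.39.

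Hmox1, the target most often used as a marker of oxidative stress, was dim, with 84.5% of the arrays under 16. Its mean change was 0.12 at H3 (95% interval -0.10 to 0.34) and 0.18 at R1 (-0.04 to 0.40). The largest differences in single regions were 0.70 ± 0.23 in hippocampus at R1 and 0.94 in pons and medulla at R3 (adjusted p = 0.32 and 0.47, limma). In hippocampus the R1 arrays read 23.9, 3.33 and 37.7 against 7.49, 1.45 and 7.68 in sham mice, so 1 of the 3 was within the sham range. In pons and medulla the R3 arrays, at 21.8, 18.4 and 42.2, were all above the sham arrays of 3.29, 8.80 and 6.405.

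Nqo1 differed from sham by 0.03 at H3 and 0.02 at R1 in the mean over regions, with 95% intervals of -0.09 to 0.14 and -0.09 to 0.13. For Gclc the 2 probe sets gave 0.09 and 0.02 at H3 and 0.06 and 0.05 at R1. For Gclm they gave -0.02 and 0.01 at H3 and -0.09 and 0.05 at R1. The highest upper 95% limit among these 4 probe sets was 0.20 at H3 and 0.18 at R1. Srxn1, on 4 probe sets, ranged from -0.064 to 0.0038 (H3) and from -0.066 to 0.061 (R1).

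In single regions, Txnrd1 was the one target with calls, and both were falls in cerebellum at R1. The probe set 1421529_a_at read 333, 325 and 319.9 in sham cerebellum, 303, 269 and 291 at H3, and 262, 260.3 and 242 at R1. All 6 later arrays lay below sham, and it fell by 0.34 ± 0.064 at R1 (adjusted p = 0.012, limma), with a difference of -0.17 ± 0.064 at H3 (adjusted p = 0.28). The probe set 1424486_a_at read 136, 139 and 127 in sham mice and 89.98, 83.8 and 108 at R1, and fell by 0.45 ± 0.097 (adjusted p = 0.025). The third, dim probe set 1424487_x_at read 26.3, 14.6 and 17.3 against 23.8, 16.4 and 22.1, a difference of 0.06 ± 0.26. The first call was lost without sham replicate 2 or R1 replicate 3 (adjusted p = 0.051 and 0.068), and the other without sham replicate 1 or 2 or R1 replicate 1 or 2 (0.080 to 0.14).

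**Figure D4:**
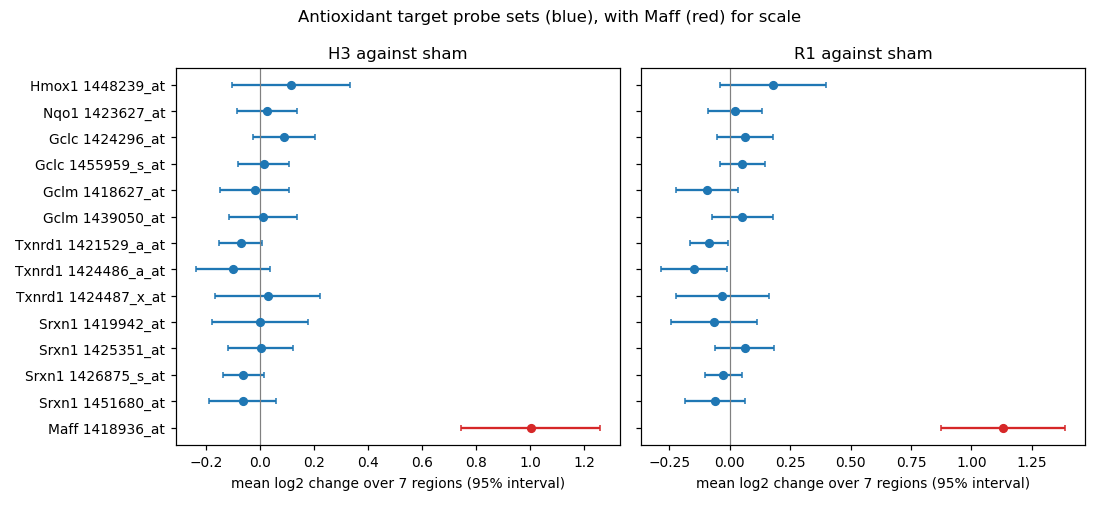
Mean log2 change from sham over the 7 regions with its 95% interval for the 13 probe sets of the antioxidant targets (blue) and for Maff (red), at H3 and at R1. The blue points lie between -0.15 and 0.18, and the red points at 1.00 and 1.13.

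The wider pathway was read from a list. Of 84 further genes listed as regulators or known targets of NRF2, large Maf factors or other antioxidant enzymes, 74 had a probe set of their own. In single regions, 0 of 518 tests were called at H3 or at R1 (limma, 29 and 55 at an unadjusted p under 0.05). The shares over all probe sets were 0.157% up and 0.153% down at H3 and 0.158% up and 0.25% down at R1, at which few or no calls come from a list of this size. The only calls at any time were rises of Slc40a1, the iron exporter ferroportin, at R3. It rose by 0.56 ± 0.089 in thalamus and by 0.63 ± 0.095 in cerebellum (adjusted p = 0.030 and 0.029, limma). Thus 2 of 518 tests were called at R3, against 0.00888% of the tests over all probe sets. None of the 9 regulators of NRF2 was called, and Keap1 and the repressor Bach1 differed from sham by 0.06 and 0.08 in the mean over regions at R1.

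In the mean over regions, 1 of the 74 genes fell and 0 rose at H3, 2 rose and 1 fell at R1, and 2 rose at R3. At H3 and R1 these counts lie near the shares over all probe sets (1.2% up and 2.16% down, and 1.65% up and 3.83% down), so they say nothing particular about the pathway. Over H1, R3, R6, R12 and R24 together, 0.196% of the tests over all probe sets were called. Txn1, thioredoxin, fell by 0.16 ± 0.039 at H3 (adjusted p = 0.028, limma). At R1, Sesn1, a sestrin that responds to p53 and FOXO factors, rose by 0.31 ± 0.052, Cbr3, a carbonyl reductase, rose by 0.29 ± 0.047, and Idh2, the mitochondrial NADP-dependent isocitrate dehydrogenase, fell by 0.16 ± 0.045. At R3, Sesn1 was up by 0.23 ± 0.052 and Slc40a1 by 0.50 ± 0.057. The median change over the 74 genes was 0.0031 at H3 and 0.046 at R1. Among the 21 genes of glutathione synthesis and use, Ggt7 had the largest mean change, and its 49 changes lay between -0.13 and 0.30. Slc7a11, the cystine transporter and a well known NRF2 target, lay between -0.43 and 0.26 without a call.

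Levels before hypoxia were compared between the regions, which share the 3 sham mice. In sham mice, 11 of the 19 probe sets had levels that differed between the regions (limma, adjusted p under 0.05), against 48.5% of all probe sets, a share near that of the members. These were 1416543_at of Nfe2l2 and probe sets of Nqo1, Gclc, Gclm, Txnrd1, Srxn1 and Mafk. Maff, Hmox1 and Mafg were not among them.

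Srxn1 (1426875_s_at) had a mean of 458 ± 14.3 (SD, n = 3) in thalamus, the highest, and 263 ± 22.6 in hippocampus, the lowest, a difference of 0.77 ± 0.075 on the log2 scale (adjusted p = 5.7e-16, limma). Thalamus, midbrain, and pons and medulla stood together at the top, and of the steps in the order only that from midbrain down to cerebellum passed the test (0.42, adjusted p = 2.2e-06). The probe sets 1451680_at and 1425351_at of Srxn1 had the same 3 regions at the top, while 1419942_at, whose levels did not pass the test (adjusted p = 0.17, limma), was highest in cerebellum and lowest in thalamus. On 1451680_at pons and medulla came first at 525 ± 109.98 and hippocampus last at 260.2 ± 10.0. Gclm (1418627_at) was highest in pons and medulla at 429 ± 29.1 and lowest in hippocampus at 187 ± 30.4, a difference of 1.14 ± 0.16. Its step from thalamus to cortex passed the test (0.49, adjusted p = 0.014). The other Gclm probe set had its highest level in cerebellum and its lowest in striatum.

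Txnrd1 (1421529_a_at) ran from 434 ± 9.91 in thalamus down to 269.96 ± 44.4 in cortex, a difference of 0.66 ± 0.077. Its probe set 1424486_a_at also passed the test (adjusted p = 0.0026, limma) but in another order. That one ran from 134 ± 5.99 in cerebellum to 86.2 ± 7.02 in hippocampus. The levels of these probe sets correlated at 0.075 over the 21 sham arrays, so no single order is given for Txnrd1. Nqo1 ran from 73.1 ± 10.5 in cerebellum to 40.5 ± 3.98 in cortex, and no step between neighbours passed the test. Nfe2l2 (1416543_at) ran from 239 ± 27.7 in pons and medulla to 133 ± 28.4 in cortex. Mafk had its highest level in hippocampus (148 ± 12.1) and its lowest in cerebellum (94.5 ± 11.8). Levels of different probe sets are not on a common scale and are compared here across regions only.

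**Figure D5:**
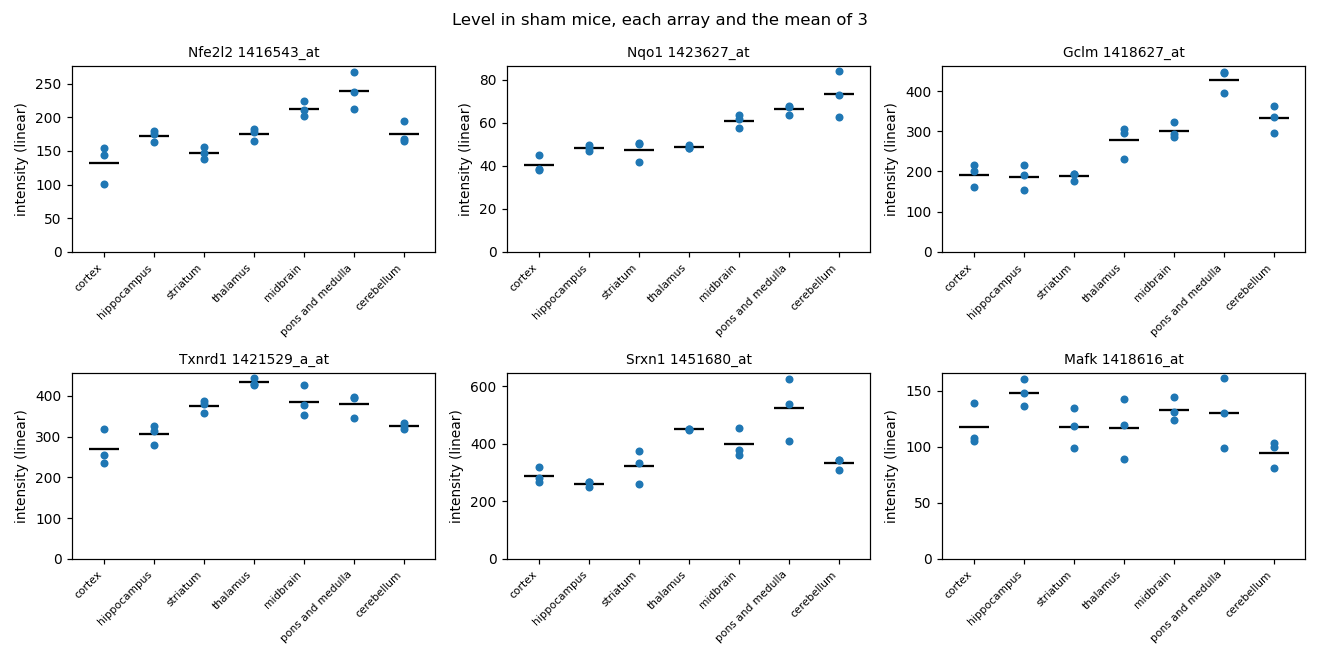
Intensity in sham mice on each array (points) and the mean of 3 (bars), by region on linear axes that start at 0, for 6 probe sets. Srxn1 (1451680_at) stands highest in thalamus, midbrain, and pons and medulla, Gclm highest in pons and medulla, and Mafk lowest in cerebellum.

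By their course over the 49 differences from sham (7 regions by 7 time points), the genes most like Maff were Errfi1, a feedback inhibitor of the EGF receptor, Polr3e, a subunit of RNA polymerase III, and Phactr3, a regulator of protein phosphatase 1, with Pearson r of 0.87, 0.83 and 0.80. For Nfe2l2 (1416543_at) they were Zfp770, Cebpg and Rc3h1 (0.83, 0.82 and 0.81), for Mafg (1448916_at) Rbm5, Cenpc1 and Rasa2 (0.79, 0.79 and 0.74), and for Txnrd1 (1421529_a_at) Fbxo25, Gcnt1 and Dlc1 (0.70, 0.67 and 0.67). The 7 differences of a region share its sham arrays, and the values are descriptions. Probe sets of 1 gene did not always move together: r was 0.70 for those of Mafg, -0.41 for those of Nfe2l2 and -0.05 for those of Gclm.

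Arrays of the same region correlated at 0.969 to 0.987, and none stood apart. Of 37 markers of the regions, 35 were highest in their own region, the exceptions being Rorb, a cortical marker highest in thalamus, and Pou4f1, a midbrain marker highest in pons and medulla. Among lists for 8 cell types (neurons, astrocytes, oligodendrocytes, microglia, vessels, meninges, choroid plexus and blood, 52 genes), 1 gene in 1 region was called at H3 and at R1. This was Opalin, of oligodendrocytes, which rose in cortex at both times, by 0.67 and 0.65 (adjusted p = 0.018 and 0.022, limma), where no member was called. Opalin also rose in the mean over regions, by 0.44 at H3 and by 0.56 at R1 (adjusted p = 0.045 and 0.0064), the same means in which Maff, Nfe2l2, Mafg and Mafk were called. The summed level of the 6 choroid plexus markers varied most, between 529 and 5156 over the sham arrays of cerebellum and between 2739 and 5828 at H3 there. In pons and medulla at H3 it ran from 563 to 5855, against 4947 to 6123 in sham mice. The part of these markers in the changes of the members was not tested.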

How the data were processed

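Total RNA of 7 brain regions was hybridised to Affymetrix Mouse Genome 430 2.0 arrays, 3 for each of 8 time points in each region. The authors deposited a table of linear signal intensity for 45101 probe sets on 24 arrays of each region. With the top and bottom 2% of values trimmed, every array has a mean of 124.6 to 124.7, and 23.3% to 30.2% of an array's values lie under 16. The authors' methods describe GCRMA, quantile normalization and division by the sham mean of the region, none of which these values show, and the submitters' processing notes name GCOS 1.3. How the table was made is not given in the sources used here.

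Groups, regions and replicate numbers were taken from the labels. By the study's methods each group had 3 mice, whose regions were all measured, but no source used here ties a replicate number to a mouse across regions. The 64 control probe sets were left out. Probe sets were named through the platform annotation (34945 with 1 symbol, 932 with several, 9160 with none). On log2(intensity + 16), separate limma models (version 3.58.1, under R 4.3.3) were fitted to the 24 arrays of a region, with 8 group means, moderated tests and Benjamini-Hochberg adjustment over 45037 probe sets, and called at an adjusted p under 0.05. The mean over regions was fitted on 24 profiles, each the mean of the 7 arrays with the same time point and replicate number. Differences between regions and sham levels came from 1 fit over all arrays, with a random block for arrays that share time point and number (correlation 0.037). The number of arrays limits the precision.

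All member probe sets were described, with full values for members called in a region at the region of largest change. The members, gene lists and tests were chosen with earlier results of these data known. Promoter windows are RefSeq's, build GRCm38.p6. The fits were tested on simulated data. Alternatives were other constants, normalizations, filters and tests, a replicate block and leaving out replicates. No array was left out of the reported fits.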

Additional observations from a re-analysis of the deposited data

How the results depend on the processing

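The alternatives were run for 24 called changes of members against sham, which kept their direction under every alternative that gave them a value. Changes from H1 to H3 and those of other genes were not rerun. With a constant of 1, the member calls over the 7 regions at R1 numbered 6 (10 as reported) and the Maff calls at H3 and R1 5 (9 as reported). Testing only probe sets brighter than the median, which leaves out Maff, Hmox1, the dim probe set of Nfe2l2 and that of Txnrd1, left 0 member calls at H3, 4 at R1 and 4 by the F-test (8 as reported), with fewer probe sets tested. A Student's t-test of each time point against sham, which the methods run only after an analysis of variance and not with this adjustment, gave 0 member calls at H3 and R1 after Benjamini-Hochberg adjustment, 0 for Maff and 0 for the antioxidant targets, against 15 and 25 of 133 tests at its unadjusted threshold of 0.05 at H3 and R1. It called 2 and 6 tests over all probe sets, and the cause was not tested. A joint fit with a random block in place of the mean profiles added 1 member call in the mean over regions at H1 and 1 at R3, both Maff, 1 at H3 (Mafg) and 3 among the targets, all falls of Srxn1 at R12 and R24 of -0.16 to -0.14. The calls of that joint fit over all probe sets were not counted. Leaving out 1 replicate number of 1 time point gave 3 to 5 member calls at H3, 3 to 10 at R1, 4 to 9 for Maff and 0 to 2 for the targets. With the replicate number as a block, the member calls over the 7 regions numbered 5 at H3 and 10 at R1. The block lost no call that was reported and added 1 in the mean over regions at H3 (4 in place of 3). Deviations of arrays with 1 replicate number at different time points correlated at 0.098 to 0.19 in the mean of a region, positive in every region. Between regions, arrays of 1 time point correlated in the mean at 0.076 with the same number and at -0.038 with different numbers. The reported fits did not take the numbers to pair the arrays. Whether a number marks a batch or a mouse was not tested. Dim probe sets, among them Maff in sham mice and Hmox1, limit what signal over background can show.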
